A study of Drosophila melanogaster with 2 samples.

Results

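The tubulin genes examined here were the 10 listed alpha-, beta- and gamma-tubulin genes of Drosophila melanogaster: alphaTub84B, alphaTub84D, alphaTub85E, alphaTub67C, betaTub56D, betaTub60D, betaTub85D, betaTub97EF, gammaTub23C and gammaTub37C. They were chosen by name and not by any measured value, though earlier results of these data were known. All 10 were found in the Ensembl annotation, among 18277 genes of which 13968 were protein-coding. Chromatin immunoprecipitation with sequencing had been done on whole embryos aged 0 to 16 h, of both sexes pooled, from a fly line that stably expresses BuGZ (CG17912) fused at its C terminus to GFP. There was 1 group with 2 replicates and no second genotype or treatment, so no condition was set against another. The data were lists of regions: 2413 reproducible peaks, and 30000 candidate regions each for replicate 1, replicate 2 and both replicates pooled. The sample descriptions call the libraries input controls while the antibody label names CG17912 and the read-me texts set each library against a separate control. The libraries are taken here as immunoprecipitates, a reading the labels do not settle.

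Alpha- and beta-tubulin pair into the dimer that polymerises into microtubules, and gamma-tubulin sits in the ring complex from which microtubules grow. Flies carry several genes for each, some used in nearly every cell and others in the germline, the testis, developing muscle or particular epithelia. BuGZ is a zinc finger protein best known, from work in vertebrates, as a partner of the checkpoint protein Bub3 and for its association with spindle microtubules and tubulin. Because whole embryos were used, a site bound in few cells and a weakly bound site in many cells cannot be told apart.

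Reproducible peaks lay at the promoters of 2 of the 10 genes, alphaTub84B and gammaTub23C. A promoter peak here means that the summit fell no further than 250 bp from a transcription start site (TSS) of the gene. This share of 20% (exact 95% Clopper-Pearson interval 2.52% to 55.6%, counting error over genes only) stood beside 9.43% of all genes and 11.6% of protein-coding genes. With the window widened to the gene body plus 2 kb on each side, betaTub56D and gammaTub37C joined, giving 4 of 10 (40%, interval 12.2% to 73.8%) beside 22% of all genes and 24.6% of protein-coding genes. The 10 genes are a fixed, named list, so the wide intervals reflect only how few genes were counted and give no test against the background. In the first 2413 regions of replicate 1 alone, gammaTub23C was missing from both windows, leaving 1 and 3 genes. In those of replicate 2 alone, betaTub56D and gammaTub37C were missing from the wider one, leaving 2. The other 6 genes, namely alphaTub84D, alphaTub85E, alphaTub67C, betaTub60D, betaTub85D and betaTub97EF, had no reproducible summit in either window.

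Weaker candidate regions added more promoters, with a pooled share close to that of protein-coding genes. Pooled candidates lay at the promoters of 5 tubulin genes, the 2 above with betaTub56D, betaTub60D and betaTub97EF. The same 5 genes were the ones with a promoter candidate in both replicate lists. That was 50% of the genes, beside 40.7% of all genes and 47% of protein-coding genes for the pooled list, and 27.6% of all genes and 33.3% of protein-coding genes for both replicate lists. Replicate 1 alone added alphaTub84D and replicate 2 alone added alphaTub85E, for 6 genes in each list. The background was 36.3% of all genes and 42.1% of protein-coding genes in replicate 1, and 40.1% and 46.4% in replicate 2. betaTub85D, alphaTub67C and gammaTub37C had no promoter candidate within 250 bp in any list. For gammaTub37C a reproducible summit lay just outside that window, 299 bp before its TSS. A gene with no candidate may only have ranked lower, since each list ends at 30000 regions.

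**Figure D1:**
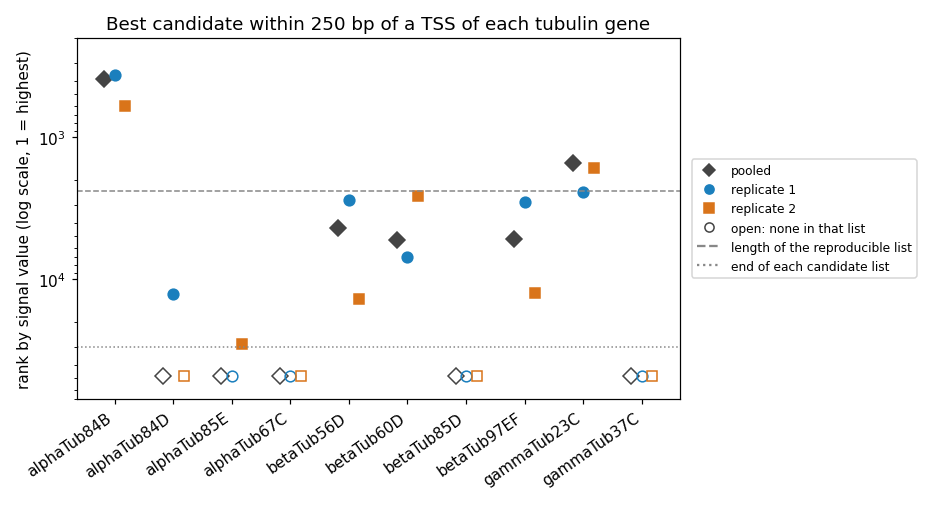
Rank by signal value (log scale, 1 is the highest) of the best candidate within 250 bp of a TSS of each tubulin gene, in the pooled list and in each replicate list; open symbols mark genes with none in that list. alphaTub84B ranked 387 pooled, 368 in replicate 1 and 600 in replicate 2, ahead of the other 9 genes in all 3 lists.

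By rank of the best promoter candidate alphaTub84B came first in both replicates. Its ranks of 368 and 600 compared with 2454 and 1656 for gammaTub23C, which were 6.67 and 2.76 times as large. Between replicates, the larger rank of one promoter was typically 1.96 times the smaller (median over 4651 protein-coding genes with a candidate in both lists, interquartile range 1.37 to 3.26). Both ratios of gammaTub23C to alphaTub84B exceeded this median, but the replicate 2 ratio of 2.76 lay within the interquartile range. The next 3 genes did not keep one order. betaTub56D ranked 2756 in replicate 1 and 13880 in replicate 2, betaTub97EF 2847 and 12452, and betaTub60D 6985 and 2591. gammaTub23C ranked ahead of these 3 in both replicates, although its lead was only 1.12-fold over betaTub56D in replicate 1 and 1.56-fold over betaTub60D in replicate 2, less than the usual disagreement between replicates.

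The alpha-tubulin genes differed most among themselves. alphaTub84B (3R, 7086599 to 7088839, plus strand, dm6), which encodes the main alpha-tubulin of most cells, carried 2 reproducible peaks. The first, at 7086594 to 7086725, had its summit 39 bp downstream of the TSS in the 5' UTR, with a signal value of 221 and rank 387 in the reproducible and the pooled list. Signal values are the authors' own and were compared only within a list; the reproducible list ran from 101 upward with a median of 134. The summit lay 48 bp past the TSS in replicate 1 (signal value 116, rank 368) and 132 bp past it in replicate 2 (signal value 93.7, rank 600). Both replicates thus had their summit in the 5' UTR, downstream of the start. That of replicate 2, at 7086731, fell just past the end of the reproducible interval. Among the 1621 protein-coding genes with a promoter peak, 260 (16%) had a stronger one. Tailor, a terminal uridylyltransferase gene read in the opposite direction from a TSS 516 bp away, had no reproducible promoter peak. The best candidate within 250 bp of any Tailor TSS ranked 15715 pooled, 13937 in replicate 1 and 8202 in replicate 2. It is equally the best of asRNA:CR45907, whose TSS was 3 bp from the pooled summit, and cannot be given to Tailor alone.

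The second peak of alphaTub84B, at 7087114 to 7087449, had its summit inside the coding exon, 683 bp past the TSS (signal value 119, rank 1621). The replicates put it at 682 and 683 bp but weighted it differently, with rank 836 in replicate 1 and rank 3945 in replicate 2, beyond the length of the reproducible list. Summits in coding exons away from promoters were rare, at 16 of the 2413 reproducible peaks (0.663%), and this one was the 10th by signal value among them. Of its interval, 216 bases were coding, and 200 of these (92.6%) were identical at the same coding positions of alphaTub84D, with a longest identical run of 41 bases. Whether reads from the similar copy were shared between both genes was not tested. Further candidates lined the rest of the locus. The pooled list had 9 summits in the gene body plus 2 kb, with ranks down to 27326. Of these, 7 had a summit within 200 bp in both replicate lists. A replicate summit could match more than 1 pooled summit, and some of the 9 intervals overlapped, so they need not be separate sites. With every listed summit counted, the density was 1.44 per kb. It was reached by 32 of 13968 protein-coding genes (0.229%), whose median was 0.281 per kb.

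alphaTub84D (3R, 7530753 to 7532732, plus strand), the other widely expressed alpha gene, had no reproducible peak. Its product differs from that of alphaTub84B at 2 of 450 residues, and the coding sequences were 92.2% identical (1245 of 1350 positions). At its promoter only replicate 1 had a candidate, 104 bp past the TSS (signal value 22.9, rank 12672). Replicate 1 also had a summit 408 bp upstream (rank 22482), and the pooled list had a single summit in the whole window, 1021 bp upstream at rank 28258. Rtnl2, a divergent reticulon gene, has more than 1 TSS. The nearest is 512 bp from that of alphaTub84D, with the weaker replicate 1 summit 104 bp before it, and the pooled summit lay 151 bp past another. The pair therefore differed in the lists, with coding sequences 92.2% identical. Their promoter sequences were less alike: a global alignment of the windows from 250 bases before the TSS to 50 from it onward matched 158 of 347 columns (45.5%), with no identical run over 5 bases. No unrelated promoter pair is given for comparison, and whether promoter sequence bears on the difference was not tested.

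These windows are shown because one carried the highest-ranked tubulin promoter peak and the other no reproducible peak, with that of alphaTub67C, a maternal gene free of pooled candidates. All are from the RefSeq assembly that dm6 shares (Release 6), plus strand, 5' to 3', with the TSS at base 251. Capitals mark listed promoter motifs.
alphaTub84B, chr3R:7086349-7086648: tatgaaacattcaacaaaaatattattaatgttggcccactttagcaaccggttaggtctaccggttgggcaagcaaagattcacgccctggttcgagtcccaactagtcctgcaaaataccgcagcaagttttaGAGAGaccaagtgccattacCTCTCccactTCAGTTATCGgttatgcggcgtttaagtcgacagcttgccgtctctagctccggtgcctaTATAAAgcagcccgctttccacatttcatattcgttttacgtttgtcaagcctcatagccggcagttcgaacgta
alphaTub84D, chr3R:7530503-7530802: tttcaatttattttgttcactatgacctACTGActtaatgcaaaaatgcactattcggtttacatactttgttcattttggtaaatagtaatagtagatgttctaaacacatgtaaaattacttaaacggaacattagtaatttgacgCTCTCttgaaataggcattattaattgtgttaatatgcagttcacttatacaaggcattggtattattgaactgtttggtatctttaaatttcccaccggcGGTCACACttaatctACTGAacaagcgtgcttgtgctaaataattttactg
alphaTub67C, chr3L:9681018-9681317: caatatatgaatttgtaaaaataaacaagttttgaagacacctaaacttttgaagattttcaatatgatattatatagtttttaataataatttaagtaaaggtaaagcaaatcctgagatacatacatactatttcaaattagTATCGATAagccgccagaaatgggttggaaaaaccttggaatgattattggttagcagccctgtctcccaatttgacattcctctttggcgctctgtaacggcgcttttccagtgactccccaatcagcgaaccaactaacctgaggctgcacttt
The alphaTub84B window held a TATA box (TATAAA) starting 25 bases before the TSS. It also held a GAGA element (GAGAG) on each strand, at 115 and 95 bases before the TSS. TCAGT followed by TATCG, the reverse complement of CGATA, lay at 85 and 80 bases before the TSS. The alphaTub84D window had no TATAAA but GGTCACAC, the core of the motif bound by M1BP, starting 1 base before the TSS, 1 GAGA element 102 bases before it, and TCAGT on the minus strand starting 222 bases before it and at base 15 from it. The alphaTub67C window held the DNA replication-related element TATCGATA, known as the site of Dref, starting 106 bases before the TSS. G and C made up 46.3% of the alphaTub84B window, 31.3% of that of alphaTub84D and 35% of that of alphaTub67C, beside a median of 39.3% over all promoters.

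The remaining alpha genes were nearly free of candidates. alphaTub85E (3R, 9731221 to 9733250, minus strand), used in few somatic cell types, had 1 region in all lists, in replicate 2, with its summit 229 bp past the TSS in an intron (signal value 16, rank 28799). alphaTub67C (3L, 9681268 to 9683370, plus strand), the maternal alpha-tubulin of the ovary and early embryo, had only a replicate 2 candidate past its 3' end (rank 26551), 611 bp upstream of CG16719. Both sit at the bottom of the lists, and neither had a pooled summit.

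Both gamma-tubulin genes had a reproducible peak upstream, in each case between the tubulin gene and a divergent neighbour. gammaTub23C (2L, 2972891 to 2974858, plus strand), the gamma-tubulin of somatic cells, had its peak at 2972613 to 2972948 (signal value 122, rank 1522), with the summit 110 bp before its TSS. Replicate 1 placed the summit 151 bp before the TSS (signal value 51.5, rank 2454) and replicate 2 155 bp before it (signal value 66, rank 1656). Replicate 1's rank fell just beyond the length of the reproducible list. Rrp1, a DNA repair endonuclease gene on the other strand, starts 383 bp away, and the reproducible summit was 273 bp before its TSS. In the replicates the summit lay within 250 bp of both starts, so the peak cannot be given to gammaTub23C alone. Of the protein-coding genes with a promoter peak, 64.9% had a stronger one than gammaTub23C. Nothing else was found in the gene in the pooled list.

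At gammaTub37C (2L, 19183863 to 19185726, minus strand), the maternal gamma-tubulin, the peak at 19185857 to 19186192 was near the end of the reproducible list (signal value 102, rank 2396). Its summit lay 299 bp before the gammaTub37C TSS and only 18 bp before that of pigeon, the divergent neighbour 317 bp away. The position was the same in replicate 1 (299 bp, rank 2168) and 1 bp nearer in replicate 2 (298 bp, rank 5358). It is therefore a promoter peak of pigeon by the 250 bp rule and just outside that window for gammaTub37C. The shared intergenic stretch of this gene is shown because it holds the summit near one end and a listed motif near the other, next to the promoter window of gammaTub23C, each on the strand of its gene and with capitals as above. The stretch of gammaTub37C runs from 320 to 21 bases before its TSS.
gammaTub23C, chr2L:2972641-2972940: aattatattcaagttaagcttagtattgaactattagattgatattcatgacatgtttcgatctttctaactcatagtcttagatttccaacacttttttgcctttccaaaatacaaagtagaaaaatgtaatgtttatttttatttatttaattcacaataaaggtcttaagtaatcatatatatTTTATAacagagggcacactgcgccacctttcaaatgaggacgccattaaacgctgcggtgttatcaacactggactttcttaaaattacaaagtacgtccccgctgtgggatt
gammaTub37C, chr2L:19185747-19186046: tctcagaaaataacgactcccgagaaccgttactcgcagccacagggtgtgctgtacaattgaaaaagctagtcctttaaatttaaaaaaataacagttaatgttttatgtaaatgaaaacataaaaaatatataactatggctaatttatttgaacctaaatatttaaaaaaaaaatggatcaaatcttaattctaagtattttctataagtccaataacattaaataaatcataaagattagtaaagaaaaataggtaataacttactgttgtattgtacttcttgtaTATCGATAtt
The gammaTub23C window held, of the 9 motifs, only TATAAA on the minus strand, with its first base 64 before the TSS. In the gammaTub37C stretch TATCGATA started 30 bases before the gammaTub37C TSS, far from the summit. Both were poor in G and C (31.7% and 25.3%).

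**Figure D2:**
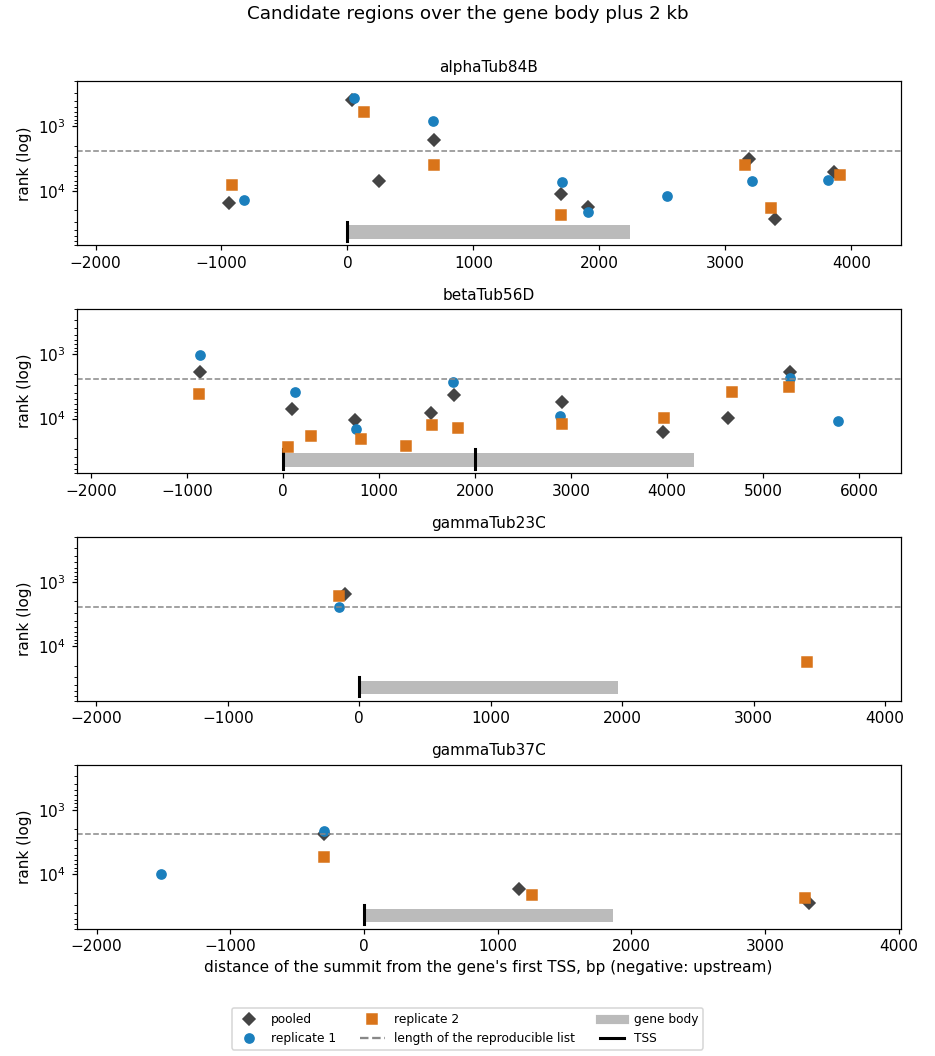
Candidate summits over the 4 tubulin genes with a reproducible peak in the gene body plus 2 kb, by distance from the gene's first TSS in bp (x axis) and rank in the pooled, replicate 1 and replicate 2 lists (y axis, log scale); grey bars are gene bodies, black ticks TSS and the dashed line the 2413 regions of the reproducible list. alphaTub84B and betaTub56D had 9 pooled summits each, of which 5 and 6 lay inside the gene body and the rest in the flanks. gammaTub23C had 1, upstream of the gene, and gammaTub37C had 3, with 1 inside the body.

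Among the beta genes, betaTub56D, the widely used beta-tubulin, had candidates along its length but reproducible peaks only at its neighbours. The gene lies on 2R (19447319 to 19451600, minus strand) and has 2 TSS. A reproducible peak at 19452293 to 19452628 (signal value 111, rank 1905) had its summit 861 bp before the upstream TSS and 43 bp before that of CG7744, a divergent gene. Another at 19446147 to 19446482 (signal value 111, rank 1920) lay beyond the 3' end and 29 bp before the TSS of EloC, which encodes elongin C. The CG7744 peak ranked 1021 in replicate 1 and 4096 in replicate 2, and the EloC peak 2367 and 3286. At the gene's own starts, the pooled list had a summit 225 bp before the downstream TSS, in an intron of the longer transcript (rank 4375), and one 92 bp past the upstream TSS (rank 6997). The former ranked 2756 in replicate 1 and 13880 in replicate 2. In all, 9 pooled summits fell in the gene body plus 2 kb, 6 of them with a summit within 200 bp in both replicates. Here too, some neighbouring intervals overlapped. The density of 1.09 per kb was reached by 1.43% of protein-coding genes (200 of 13968).

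betaTub60D (2R, 24305881 to 24313099, plus strand), the beta-tubulin of developing muscle, had its best candidate at the TSS. The summit was 22 bp past the start in the pooled list (signal value 67.5, rank 5304), 3 bp past it in replicate 1 (signal value 30.1, rank 6985) and 77 bp past it in replicate 2 (signal value 55.6, rank 2591). The replicate 2 rank came close to the length of the reproducible list and the replicate 1 rank did not. Of the 8 pooled summits in its window, the next best ranked 13758, and 2 had a summit within 200 bp in both replicates. Its density of 0.713 per kb lay just under the 90th percentile of protein-coding genes (0.723).

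betaTub97EF (3R, 27967008 to 27988384, minus strand), expressed in particular epithelia and the longest of the 10 genes at 21377 bp, resembled it at the promoter. Its summit lay 65 bp past the TSS in the pooled list (signal value 67.9, rank 5246), 43 bp past it in replicate 1 (signal value 47.6, rank 2847) and 111 bp past it in replicate 2 (signal value 26.3, rank 12452). Here replicate 1 gave the higher rank, the opposite of betaTub60D. A second candidate 623 bp upstream ranked 6724 pooled and 7106 in replicate 2, with a replicate 1 summit 666 bp upstream at rank 6229. Intronic candidates 1333 and 7769 bp past the TSS ranked 11592 and 8200 in the pooled list. The former ranked 25788 in replicate 1 (1375 bp) but 5807 in replicate 2 (1289 bp), where it was ahead of the promoter candidate and the highest-ranked in the gene. The 7 pooled summits came to 0.276 per kb, close to the protein-coding median.

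betaTub85D (3R, 9408383 to 9410282, minus strand), the beta-tubulin of spermatogenesis, had no candidate in its body in any list. Of the 2 pooled summits in its upstream 2 kb, one lay 1187 bp before its TSS (rank 14802), and the other 1888 bp before it (rank 12600). They were 824 and 123 bp past the TSS of Task7, a potassium channel gene. betaTub65B, the only further gene named as a tubulin in the annotation, had no promoter candidate in any list and a best pooled rank of 24082 in its window.

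**Figure D3:**
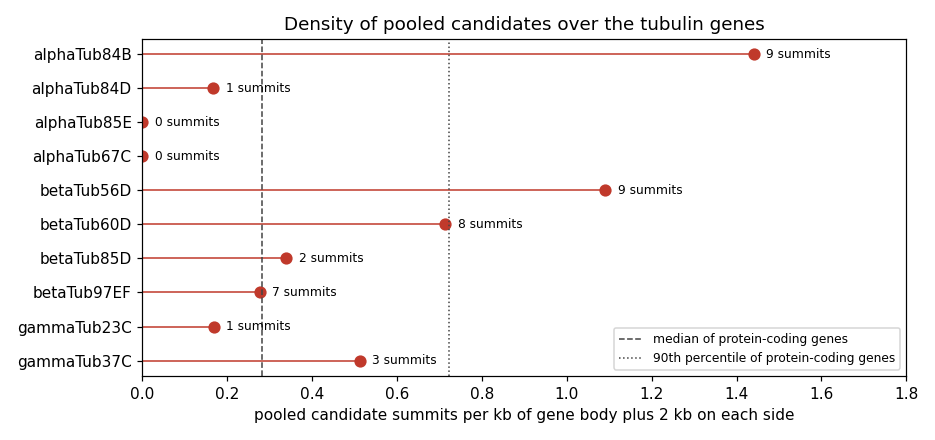
Pooled candidate summits per kb of gene body plus 2 kb on each side for the 10 tubulin genes, with the number of summits beside each point; dashed and dotted lines are the median (0.281) and the 90th percentile (0.723) of 13968 protein-coding genes. alphaTub84B (1.44) and betaTub56D (1.09) lie beyond the dotted line and alphaTub85E and alphaTub67C at 0.

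Gene arrangement and promoter sequence, which the choice of genes did not use, were compared next. Divergent neighbours with starts within 1000 bp were present at 5 of the 10 genes (50%, beside 39.6% of protein-coding genes): alphaTub84B, alphaTub84D, betaTub56D, gammaTub23C and gammaTub37C. All 4 genes with a reproducible summit in the wider window were among these 5, and alphaTub84D was the one without. Of the 3438 protein-coding genes with such a summit, 1981 (57.6%) had a divergent neighbour. The wider window also takes in the neighbour's promoter, through which betaTub56D (CG7744) and gammaTub37C (pigeon) were counted. Both summits of alphaTub84B lay downstream of its own start, that of gammaTub23C lay between both starts, and the other peak of betaTub56D was at EloC, which is not divergent.

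Of 9 listed motifs, TATAAA was the one found at both tubulin promoters with a reproducible peak, and it was also at promoters without one. Motifs were sought on both strands in the 300 bases of each window and set beside 23697 windows of all annotated starts. TATAAA occurred at 6 of the 10 genes (41.4% of all windows), among them alphaTub84B and gammaTub23C and also betaTub85D, which had no promoter candidate. The 2 matches at promoters with a reproducible peak differed in strand and place. That of alphaTub84B was on the plus strand 25 bases before the TSS, that of gammaTub23C on the minus strand 64 bases before it. TCAGT, the initiator letters anywhere in the window, occurred at 7 (51.2%), CGATA at 5 (43.5%) and GAGAG at 3 (32.4%). TATCGATA, which contains CGATA on both strands, occurred at alphaTub67C and gammaTub37C (6.77% of all windows) and GGTCACAC at alphaTub84D alone (5.63%). The E-box CAGCTG was found at alphaTub85E (16.5%), while CACGTG (4.09%) and the Zelda motif CAGGTAG (1.66%) were found at none. A match is a description of the letters and no evidence of binding.

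Genes whose products make, modify or bind tubulin were examined in 4 lists. Of 20 genes for tubulin folding and assembly, 4 (20%, interval 5.73% to 43.7%) had a reproducible promoter peak, beside the 11.6% of protein-coding genes. They were Tbcd, a cofactor of dimer assembly (signal value 218, rank 398), the prefoldin subunit genes mgr (signal value 120) and Pfdn6 (signal value 104), and the cofactor gene Tbcc (signal value 117). Without replicate 2 the count fell to 1, as it did among the first 1206 reproducible regions. Pfdn6 ranked 8502 in replicate 1 and had no promoter candidate in replicate 2. The peaks of Tbcd, mgr and Pfdn6 also lay within 250 bp of CG11723, Irbp and Su(z)12 respectively. Among 15 genes for tubulin modification only Atat, the alpha-tubulin acetyltransferase gene, had one (6.67%, interval 0.169% to 31.9%). With signal value 297 and ranks of 194 and 184 in the replicates, it was higher than any tubulin gene, and the peak was shared with Shc. Microtubule-binding and severing proteins had 4 of 29 (13.8%, interval 3.89% to 31.7%): the spectraplakin gene shot (signal value 239), the katanin subunit gene kat80 (signal value 145), ens, a kinesin cofactor gene (signal value 122), and Lis-1, a dynein regulator gene (signal value 103). The gamma-tubulin ring partners had 1 of 10 (10%, interval 0.253% to 44.5%), Grip71, which brings the ring complex to the spindle (signal value 149, ranks 818 and 1015). The peak of Grip71 also lay within 250 bp of Faf2. Without replicate 2 the count of ring partners was 3.

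The pooled candidate list contains the reproducible peaks, so its counts cannot be lower. In the pooled list 14 of 20 folding genes (70%), 23 of 29 microtubule-binding genes (79.3%) and 6 of 10 ring partners (60%) had one at the promoter, beside 47% of protein-coding genes, and 4 of 15 modification genes (26.7%). In both replicate lists the counts, in the same order, were 12 (60%), 20 (69%), 4 (40%) and 3 (20%). The background there was 27.6% of all genes and 33.3% of protein-coding genes. The 5 of 10 tubulin genes were close to the protein-coding share in the pooled list. These lists were compared with the background as counts only.

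**Figure D4:**
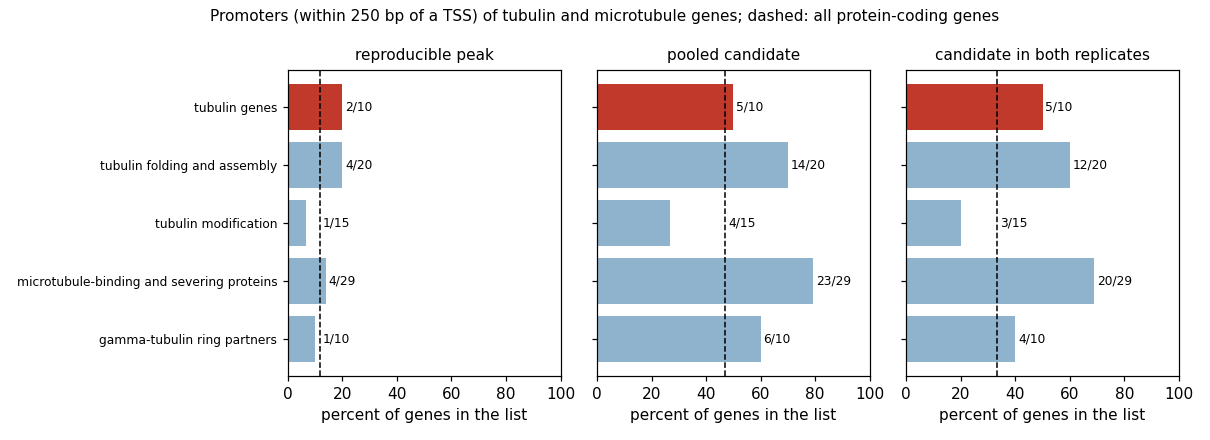
Percent of genes in each list with a reproducible promoter peak, a pooled promoter candidate and a promoter candidate in both replicate lists (within 250 bp of a TSS), with counts beside the bars; dashed lines are the shares of all protein-coding genes (11.6%, 47% and 33.3%). Tubulin genes reach 2, 5 and 5 of 10.

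The protein-coding genes nearest to alphaTub84B in promoter rank over both replicates, by Euclidean distance of log10 ranks, were CG34355 (ranks 380 and 627, distance 0.0237), the ribosomal protein gene RpS12 (375 and 509, distance 0.0719) and the glycolytic gene Pgk (351 and 511, distance 0.0727). For gammaTub23C they were Rrp1, which has the same summits and so a distance of 0, the gene for the largest subunit of chromatin assembly factor 1 (2403 and 1641, distance 0.00994) and Neurl4 (2543 and 1612, distance 0.0194). With 2 replicates such likeness rests on 2 values a gene.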

How the data were processed

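Per the deposited read-me texts, the authors called candidate regions for each replicate from its alignment to dm6 and a control alignment, pooled candidates from both alignments, and reproducible peaks from these 3 lists at an IDR (irreproducible discovery rate) threshold. Chromatin had been sonicated to a size range of 200 to 800 bp, per the labels. The aligner, the peak caller and its thresholds were not given in the sources used here. Read depth is unknown, since the lists hold none. The deposited signal value is a score on an unstated scale that differs between lists, so it gave ranks within a list only. Summit offsets, in bp, were read as deposited. All 2413 reproducible peaks were the highest-ranked pooled regions.

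Genes and TSS came from Ensembl release 115 (transposable elements left out, 7 main chromosomes) and sequence from the RefSeq copy of the same assembly. Coordinates are 1-based. The 10 genes were matched by symbol. The genes, lists, motifs and windows were chosen with earlier results of these data known. The genes named are the 10 members, neighbours with a TSS within 1000 bp of their summits, up to 4 genes per list by signal value, the 3 genes nearest in rank and any further tubulin gene. Members were counted without tests, since 1 group of 2 replicates allows none between samples, and whether the replicates were separate collections rests on the labels' biological replicate numbers. The code that assigns summits to genes was run on simulated summits. This shows only that the distance rules were applied as written. Alignments used Biopython 1.88. Alternatives covered windows, overlap, list length and each replicate alone.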

Additional observations from a re-analysis of the deposited data

How the results depend on the processing

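The tubulin promoter count of 2 fell to 1 (alphaTub84B) with a 100 bp window and in the stronger part of the reproducible list (its first 1206 regions), and rose to 4 with 1000 bp. The body plus 2 kb count of 4 fell to 1 without the flank and to 1 in the stronger part. With 1 replicate left out, using the first 2413 regions of the other, the former ranged from 1 to 2 and the latter from 2 to 3. Without replicate 2, gammaTub23C dropped out of both windows. Without replicate 1, betaTub56D and gammaTub37C dropped out of the wider one. The pooled candidate count of 5 stayed between 4 and 6 in all alternatives, and the count of 5 in both replicate lists fell to 1 with 100 bp.

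For the folding list, 4 became 1 in the stronger part, 9 in a longer pooled list (4826 regions), and 1 to 5 with a replicate left out. For tubulin modification, 1 became 0 with 100 bp, 2 with 500 bp, 4 with 1000 bp and 2 by interval overlap. For microtubule-binding genes, 4 became 2 with 100 bp, 7 with 1000 bp, 2 in the stronger part and 9 in the longer list. For ring partners, 1 became 0 with 100 bp, 3 in the longer list, and 1 to 3 with a replicate left out. Apart from the window and list lengths that define these alternatives, the cause was not tested. No share of all genes is set beside the alternative counts, so their shifts cannot be read as particular to these genes. A wider window or a longer pooled list cannot lower a count. No paired analysis was possible because there was 1 group. The lists give no read depth, so a missing region shows only that it was not among those listed.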
